A study of Mus musculus with 6 samples.

Results

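Muscle microRNA genes are here the genes of miR-499 and of other microRNAs of heart or skeletal muscle. They were examined in the ventricles of mice that carry extra miR-499. They are Mir499, Mir208a, Mir208b, Mir1a-1, Mir1a-2, Mir133a-1, Mir133a-2 and Mir206, taken by name from the annotation of the array. Of these 8 genes, 7 are listed there with 1 probe set each, out of 35556 probe sets on the array, and Mir208b is not listed and has no value here. At day 17 after birth, ventricles were taken from 3 wild-type (WT) and 3 miR-499 transgenic mice, and each mouse had its own Affymetrix gene expression array. The transgenic mice belong to the single line TG-17 (labelled TG), made in FVB/NCrl embryos, in which a stretch of mouse DNA around pre-miR-499 is driven by the promoter of Myh6, which works in heart muscle cells. The controls were littermates without the transgene, and the labels state no sex. The values are log2 values per probe set from RMA, which corrects background, normalizes between arrays and summarises the probes.

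A microRNA is cut from a hairpin in a longer RNA, and its seed, bases 2 to 8 of the mature strand, leads it to sites in messenger RNAs, which are then translated less or decay sooner. Several muscle microRNAs lie inside myosin genes: Mir499 in Myh7b, Mir208a in Myh6, the adult heart myosin, and Mir208b in Myh7, the slow myosin. In the heart, miR-208a is known to act upstream of miR-499, while miR-1 and miR-133a, made from shared transcripts at paired loci, are among the most abundant microRNAs of heart muscle. The array reads RNA that contains a hairpin and does not measure the mature microRNA. It cannot tell apart transcripts of the transgene and of the gene's own locus.

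The mature strands of the transgenic microRNA, of both miR-208 forms and of miR-206 are shown because they set miR-499 beside its nearest relatives and beside a muscle microRNA of another family. They are RefSeq sequences of GRCm38.p6, written 5′ to 3′, with the seed in capitals. They lie at chr2:155622893-155622913 (plus strand), chr14:54949072-54949093 (minus strand), chr14:54975710-54975731 (minus strand) and chr1:20679055-20679076 (plus strand), in the order printed.
miR-499-5p: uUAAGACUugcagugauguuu
miR-208a-3p: aUAAGACGagcaaaaagcuugu
miR-208b-3p: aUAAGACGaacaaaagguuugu
miR-206-3p: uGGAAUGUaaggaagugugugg
Both miR-208 forms share all 7 seed bases. miR-499-5p shares 6 of the 7 with them and differs at base 8. Over all 21 aligned bases, seed included, 12 are the same as in miR-208a-3p and 10 as in miR-208b-3p. miR-206-3p has 2 of the 7 seed positions in common with miR-499-5p. The strands of the other members were not printed here.

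Across the ventricle samples the arrays were alike, with Pearson's r over all probe sets, which are not independent replicates, of 0.992 to 0.994 within groups and 0.990 to 0.992 between them. The 8 markers listed for ventricular heart muscle cells were bright in all mice (mean log2 level 13.50 to 13.54 in WT and 13.53 to 13.54 in TG-17). None of them passed the cut-off on B given below. How well they tell ventricle from atrium was not tested. Of 6 atrial markers 2 fell, Myl4 and Myl7, and the mean level of all 6 was 8.12 to 8.27 in WT and 7.76 to 7.83 in TG-17. None of 11 skeletal muscle, 4 fibroblast, 3 endothelial, 3 smooth muscle or 3 leukocyte markers passed. The mean level of the smooth muscle markers was 10.18 to 10.30 in WT and 9.95 to 10.06 in TG-17, and that of the skeletal muscle markers 7.12 to 7.18 and 7.03 to 7.06. What part the atrial, smooth muscle and skeletal muscle levels have in the values of the microRNA genes was not tested. In whole tissue, fewer cells of a type and less RNA per cell cannot be told apart.

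Groups were compared with limma over all 35556 probe sets, and a probe set was taken as changed at B, the log odds of a difference, above 0. Of all probe sets 0.366% passed this in either direction, and 0.00562% passed an adjusted p under 0.05 (limma, Benjamini-Hochberg). Of the 7 muscle microRNA probe sets, Mir499 passed at both cut-offs and rose, and the other 6 passed neither. With limma's p left unadjusted, 3 of the 7, Mir499 among them, had a higher mean at under 0.05 and none a lower one. Over all 35556 probe sets 2480 had a higher and 3022 a lower mean at that cut-off, which is 15.5% in either direction. Of 298 other microRNA probe sets 9 had a higher and 47 a lower mean there. The median log2 change of the 6 others was 0.15, beside -0.014 over all probe sets.

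Mir499, the source of the transgenic microRNA, was 5.48, 5.34 and 5.68 in the WT mice and 9.31, 9.33 and 8.87 in the TG-17 mice. The lowest TG-17 mouse thus stood more than 3 log2 units above the highest WT mouse. The change was 3.67 on the log2 scale (standard error 0.15, 95% interval 3.31 to 4.04, adjusted p = 0.00772 from limma), or 12.7-fold in measured values. The WT level lay within the range of mostly silent genes described further on, so this fold may understate the change in the RNA. No probe set on the array rose more, and the next, unnamed here, changed by 2.17 with a B of -1.69. With 1 mouse left out the log2 change was 3.59 to 3.82 and B stayed above 0 each time. The adjusted p from limma then depended on the mouse. It was 0.134 without WT replicate 1, 0.0984 without WT replicate 2 and 0.0742 without WT replicate 3. It was 0.112 when TG-17 replicate 1 was left out, 0.0939 for TG-17 replicate 2 and 0.00888 for TG-17 replicate 3.

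Brightness of a probe set depends on its probes as well as on the RNA, so the levels of different genes are given side by side and are not ranked as amounts. As a guide to dim probe sets, 1035 olfactory receptor genes, most of which are silent outside the nose, had a median mean log2 value of 4.53, with 90% between 3.48 and 6.35 (percentiles 5 and 95). Mir499 was brighter than 82.6% of them in WT and than 100% in TG-17. Mir208a was brighter than 99.8% and Mir133a-1 than 97.0% of them in WT. Mir1a-1 was brighter than 86.3%, Mir133a-2 than 43.4%, Mir1a-2 than 24.8% and Mir206 than 10.5% in WT. The means of Mir1a-1, Mir133a-2, Mir1a-2 and Mir206 sat within this 90% range in both groups, and that of Mir499 did so in WT. No detection calls were used here, so these probe sets are not shown to be above background there, and a change in the RNA may be hidden or understated.

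**Figure D1:**
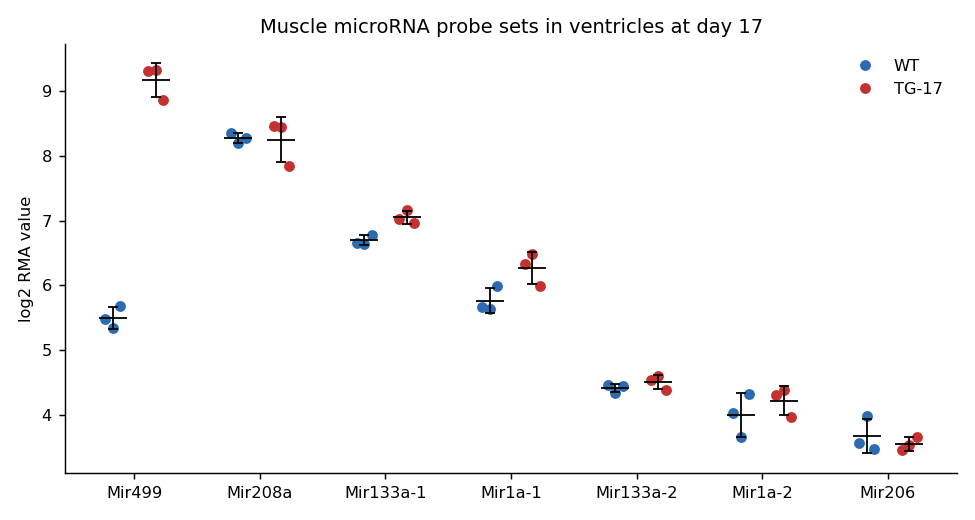
Log2 RMA values (vertical axis) of the 7 muscle microRNA probe sets in 3 WT (blue) and 3 TG-17 (red) mice, 1 point per mouse, with the group mean as a bar and 1 SD as whiskers. Mir499 goes from 5.50 to 9.17 in the mean, and Mir133a-2, Mir1a-2 and Mir206 have the lowest means in both groups.

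Mir208a encodes miR-208a, a heart muscle microRNA that shares 6 of 7 seed bases with miR-499, as miR-208b does. Its log2 values were 8.36, 8.19 and 8.28 in WT and 8.46, 8.44 and 7.85 in TG-17. The groups overlapped, since TG-17 replicate 3 lay below every other mouse and the other TG-17 mice above every WT mouse. The log2 change was -0.027 (standard error 0.17, 95% interval -0.44 to 0.39, adjusted p = 0.953 from limma). Without TG-17 replicate 3 the log2 change was 0.17 (adjusted p = 0.460 from limma), and the sign also turned with arrays centred on their medians (0.024) and without WT replicate 1 (0.013), so no direction is given.

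The miR-1 and miR-133a genes lie in pairs, Mir1a-1 with Mir133a-2 at one locus and Mir1a-2 with Mir133a-1 within Mib1 at another. miR-1 and miR-133a are known to limit growth and proliferation of heart muscle cells. The genes of each microRNA make the same or nearly the same mature strand, so their hairpins resemble each other and how their probe sets share signal is not known here.

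Mir133a-1 had log2 values of 6.66, 6.64 and 6.78 in WT and 7.03, 7.16 and 6.96 in TG-17. All TG-17 mice lay above all WT mice, but the gap between the groups was small. The share of all probe sets with separate groups is not given here. A separation of groups, for this gene or others, is thus not read as a result. The log2 change was 0.35 (standard error 0.075, 95% interval 0.17 to 0.54), with B of -1.23 and an adjusted p of 0.224 from limma, so it did not pass. Its partner Mir1a-2 was 4.03, 3.65 and 4.32 in WT and 4.30, 4.38 and 3.96 in TG-17. The groups overlapped (log2 change 0.22, standard error 0.19, 95% interval -0.25 to 0.69, adjusted p = 0.618 from limma).

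Mir1a-1 had log2 values of 5.67, 5.63 and 5.99 in WT and 6.32, 6.48 and 5.99 in TG-17. The groups touched, as WT replicate 3 and TG-17 replicate 3 had nearly the same value. The log2 change of 0.50 was the next largest of the muscle set after Mir499 (standard error 0.15, 95% interval 0.12 to 0.88), and it did not pass (B of -2.84, adjusted p = 0.262 from limma). Its partner Mir133a-2 was 4.45, 4.34 and 4.45 in WT and 4.54, 4.59 and 4.39 in TG-17. The change there was 0.091 on the log2 scale (standard error 0.072, 95% interval -0.085 to 0.27, adjusted p = 0.575 from limma), with overlapping groups.

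Mir206 encodes miR-206, a microRNA of skeletal muscle that shares its seed family with miR-1. It was 3.57, 3.97 and 3.47 in WT and 3.45, 3.53 and 3.66 in TG-17, the dimmest of the set. The groups overlapped (log2 change -0.12, standard error 0.14, 95% interval -0.46 to 0.22, adjusted p = 0.700 from limma). The skeletal muscle regulators Myod1 and Myog had mean log2 values of 6.87 and 6.16 in WT, brighter than 48.8% and 35.5% of all probe sets. Without WT replicate 2, the brightest for Mir206, its log2 change was 0.030.

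**Figure D2:**
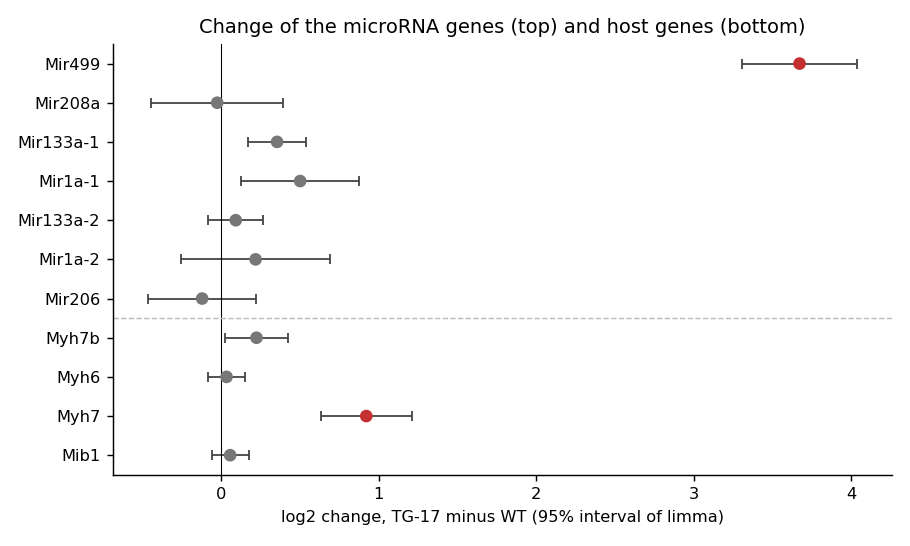
Log2 change between TG-17 and WT (horizontal axis) of the 7 microRNA probe sets, above the dashed line, and of the 4 host genes, below it. Whiskers are 95% intervals from limma over 3 mice per group, and red points have B above 0. Mir499 at 3.67 and Myh7 at 0.92 are the red points. The intervals of Mir208a, Mir133a-2, Mir1a-2 and Mir206 and those of the host genes Myh6 and Mib1 cross 0.

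The rise of Mir499 was set against the change of each other gene within the same mouse. Mir499 minus Mir208a on the log2 scale was -2.87 to -2.60 in WT and 0.85 to 1.02 in TG-17, so Mir499 went from the dimmer to the brighter of the 2 probe sets. The difference between their changes was 3.70 (standard error 0.10, n = 3 mice per group). For Mir1a-1, the gene with the nearest change, it was 3.17 (standard error 0.058), and for Mir206, the farthest, 3.79 (standard error 0.32). In all 6 comparisons every TG-17 mouse was higher than every WT mouse, with a two-sided p of 0.1 (exact permutation test over mice, 0.1 after adjustment over the 6 comparisons). This is the smallest p that 3 against 3 mice allow, so this test cannot pass 0.05. All 6 comparisons hold the same Mir499 values, so they are not independent and restate the rise of Mir499.

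The host genes give a view of the same loci through messenger RNA. Whether the Myh7b probe set also reads the stretch of DNA in the transgene was not tested. Myh7b, the host of Mir499, was 9.51, 9.34 and 9.34 in WT and 9.67, 9.70 and 9.49 in TG-17, with a small overlap between WT replicate 1 and TG-17 replicate 3. It did not pass (log2 change 0.22, standard error 0.083, 95% interval 0.020 to 0.43, adjusted p = 0.299 from limma). Mir499 minus Myh7b within a mouse went from a mean of -3.90 (SD 0.20) in WT to -0.45 (SD 0.14) in TG-17, an increase of 3.45 (standard error 0.14, n = 3 each, two-sided exact permutation p = 0.1). The flanking genes Acss2, Gss, Trpc4ap and Edem2 changed by -0.10 to -0.00045 on the log2 scale, and none passed.

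Myh6, which hosts Mir208a and whose promoter drives the transgene, was 13.90 to 13.96 in WT and 13.94 to 14.00 in TG-17, a log2 change of 0.032 (95% interval -0.086 to 0.15, adjusted p = 0.770 from limma). Mir208a minus Myh6 within a mouse changed by -0.059 (standard error 0.20, n = 3 each, exact permutation p = 0.9). Myh7, the host of the unlisted Mir208b, was 9.28, 8.90 and 9.29 in WT and 10.01, 10.06 and 10.17 in TG-17, with no overlap. It rose by 0.92 on the log2 scale (standard error 0.12, B of 1.08, adjusted p = 0.200 from limma). Without TG-17 replicates 1, 2 or 3, B was -0.13, -0.55 and -0.50. Mib1, which holds Mir1a-2 and Mir133a-1, had a log2 change of 0.055 (standard error 0.048) and did not pass, although its groups did not overlap.

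Genes of a shared locus were also compared within a mouse. Mir1a-1 minus Mir133a-2 was 1.22 to 1.54 in WT and 1.60 to 1.89 in TG-17, a difference in change of 0.41 (standard error 0.13, n = 3 each, exact permutation p = 0.1). Mir133a-1 minus Mir1a-2 overlapped between the groups, with a difference in change of 0.14 (standard error 0.18, n = 3 each, exact permutation p = 0.5). After adjustment over the 4 locus comparisons, with both hosts, these p values were 0.2 and 0.667, so neither pair was shown to differ in its change.

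The other microRNA genes of the array give a background for the muscle set. Of 298 other microRNA probe sets 224 had a lower and 74 a higher mean in TG-17, and 5 of the 7 muscle microRNA probe sets were higher. The median log2 change of the 298 was -0.088 and their changes ran from -0.54 to 0.46. Their median level per array was 5.77 to 5.85 in WT and 5.65 to 5.74 in TG-17. What part this offset between the groups has in the small changes was not tested. Mir499 had the largest change in size of all 305, Mir1a-1 was at rank 3 and Mir133a-1 at rank 14. Mir1a-2 was at rank 67, Mir206 at rank 144, Mir133a-2 at rank 180 and Mir208a at rank 267. One of the 298 passed B above 0, Mir200c, which fell by 0.37. With each array centred on the median of these 298 probe sets, the log2 changes were 3.78 for Mir499, 0.61 for Mir1a-1, 0.46 for Mir133a-1, 0.33 for Mir1a-2, 0.20 for Mir133a-2, 0.083 for Mir208a and -0.012 for Mir206, and no muscle microRNA other than Mir499 passed B above 0. Mir378a, another microRNA known from muscle, had a log2 change of -0.034 (standard error 0.072) and overlapping groups.

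**Figure D3:**
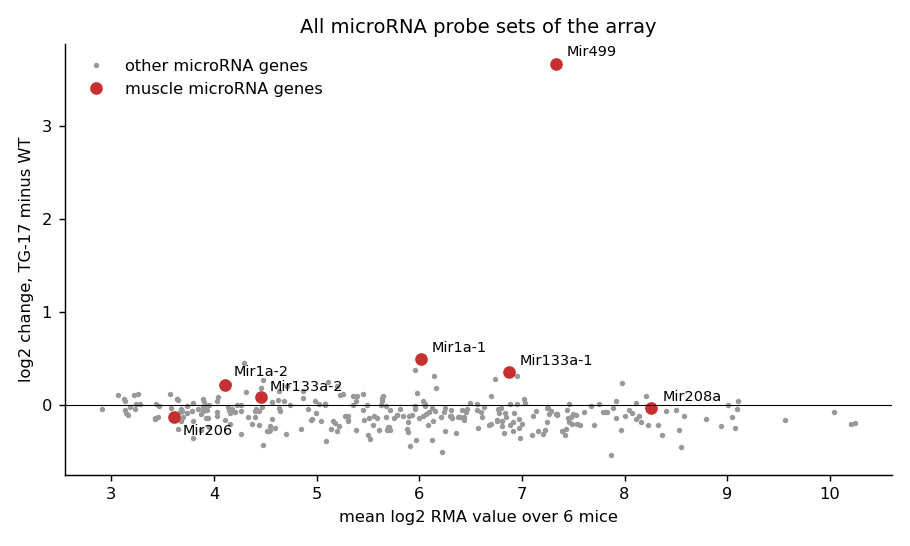
Mean log2 RMA value over the 6 mice (horizontal axis) and log2 change between TG-17 and WT (vertical axis) of all 305 microRNA probe sets, with the 7 muscle microRNA genes in red and the 298 others in grey. Mir499 stands apart at 3.67, while the grey points lie between -0.54 and 0.46, mostly below 0.

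Within each group, the muscle microRNA probe sets other than Mir206 moved together from mouse to mouse. WT replicate 2 was the lowest WT mouse and TG-17 replicate 3 the lowest TG-17 mouse for 6 of the 7 genes, which are all but Mir206. Over the 298 other microRNA probe sets 13.1% had both of these mice lowest, and over all probe sets 10.03%. This pair of mice was picked because these genes were lowest there, so the percentages are a description and not a test. Mir1a-1, Mir1a-2 and Mir133a-2 were also dim in both groups, and Mir499 was dim in WT. The mouse-to-mouse deviations from the group means, taken over the 6 mice, had a Pearson r with those of Mir499 of 0.95 for Mir1a-1, 0.93 for Mir133a-2, 0.91 for Mir1a-2, 0.87 for Mir208a and 0.83 for Mir133a-1, and of -0.74 for Mir206. These are descriptions over few arrays, in which the 2 group means were taken out and every probe set shares the normalization of its array. The share of other probe sets with r as high is not given here. Such r is thus not shown to be particular to the muscle set. The median of the whole array was 6.95 in WT replicate 2, between the other WT mice, and 6.89 in TG-17 replicate 3, the lowest of the 6 by a small margin. All WT array medians (6.93 to 6.95) lay above all TG-17 array medians (6.89 to 6.91). For Mir499 alone the SD was 0.17 in WT and 0.26 in TG-17. For the difference of Mir499 and Mir1a-1 within a mouse it was 0.071 and 0.070. With Mir133a-2 it was 0.12 and 0.16, with Mir133a-1 0.10 and 0.19, and with Mir208a 0.15 and 0.091. With Mir1a-2 it was 0.17 and 0.049, and with Mir206 0.43 and 0.36.

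**Figure D4:**
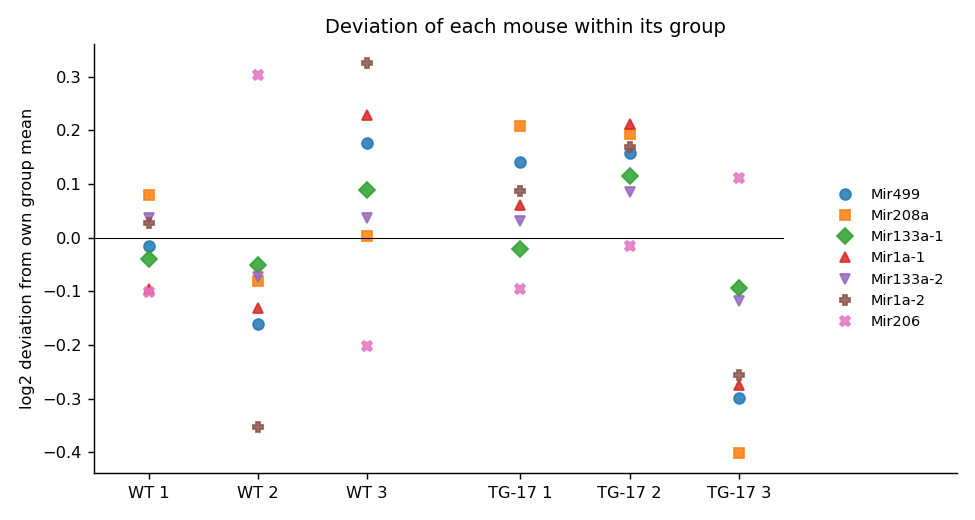
Deviation of each mouse from the mean of its own group (vertical axis, log2) for the 7 muscle microRNA probe sets, with 1 column per mouse and 1 marker shape per gene. Every gene but Mir206 lies below 0 in WT replicate 2 and in TG-17 replicate 3, where Mir206 lies above 0.

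Over the 6 mice, the named genes whose values followed Mir499 most closely were Alcam, a cell adhesion molecule (Pearson r = 0.998), Ogdh, a citric acid cycle enzyme (0.996), Med19, a Mediator subunit (0.995), Idh2, a mitochondrial isocitrate dehydrogenase (0.992), and Odf2 (0.992). The most opposite were Dbt, a subunit of the branched-chain ketoacid dehydrogenase (-0.999), Iqcf1 (-0.998) and Olfr211, an olfactory receptor (-0.998). With Mir499 so far apart between the groups, these values mostly reflect a tight group difference, and 287 of 35555 other probe sets were above 0.95 and 286 were as far on the negative side. A tight pattern need not be a large one: Ogdh changed by 0.053 on the log2 scale and Alcam by 0.92. Of these 8 genes Alcam, Iqcf1 and Dbt had B above 0. With the group means taken out, r was 0.39 to 0.94 for the 5 alike and -0.92 to -0.69 for the 3 opposite genes.

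The wider pathway was read from lists of genes that switch on the muscle microRNAs and of messenger RNAs reported elsewhere as their targets. None of the 57 genes in these lists passed B above 0. Without adjustment, 7 had a higher and 7 a lower mean at a limma p under 0.05, which is 24.6% of the list beside 15.5% of all probe sets. Their median log2 change was 0.016, beside -0.014 over all probe sets.

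Of 17 regulators of muscle microRNA transcription, none passed and the median log2 change was -0.046. Nearest to passing was Myocd, the heart and smooth muscle coactivator of serum response factor, whose log2 change was 0.41 (standard error 0.095, limma adjusted p = 0.227), with groups that did not overlap. Tead1, a muscle transcription factor, had 0.19 (standard error 0.047) and Myod1, of the skeletal muscle lineage, -0.19 (standard error 0.061).

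Of 11 reported targets of miR-499 and 7 of miR-208 none passed, and both lists hold Sox6, Sp3, Purb, Cbx1 and Med13. The median log2 change was 0.027 for the miR-499 targets and 0.078 for the miR-208 targets. Purb, a repressor of myosin transcription, had 0.28 (standard error 0.054) in its brighter and -0.013 (standard error 0.052) in its dimmer probe set. Pdcd4, a regulator of cell death, had -0.20 (standard error 0.10), and Dnm1l, a mitochondrial fission protein, had -0.082 (standard error 0.046). Sp3, a transcription factor, had 0.10 (standard error 0.077) in its brighter and -0.21 (standard error 0.084) in its dimmer probe set, and Eng, a TGF-beta coreceptor, had 0.18 (standard error 0.063).

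Of 15 measured targets of miR-1 and miR-206 none passed, and the median log2 change was 0.030. Gja1, the main ventricular connexin, had 0.20 (standard error 0.053), the potassium channel gene Kcnj2 -0.35 (standard error 0.11), and the growth factor Igf1 -0.13 (standard error 0.060). Of 13 measured targets of miR-133 none passed, with a median of 0.051. The pacemaker channel Hcn2 had -0.41 (standard error 0.072, B of -0.30), the small GTPase Cdc42 0.20 (standard error 0.054) and the caspase Casp9 -0.22 (standard error 0.068). Genes of both lists lay on both sides of 0, and the arrays measure messenger RNA, so an effect on translation is not covered.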

How the data were processed

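The deposited table holds 1 log2 value per probe set and array, made by the authors with RMA according to the submitters' processing notes. Neither its version nor a filter is stated there. All 35556 probe sets and all 6 arrays entered the fit, with 0 columns left out. Probe sets were named through the platform annotation, and 0 symbols needed an update. Of them 21789 had 1 symbol, 1621 had several and were not named, which includes the probe set of the Mir133b locus, and 12146 were unnamed. Mir486 was not listed.

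TG-17 and WT were compared with lmFit and eBayes of limma (version 3.58.1, R version 4.3.3, assumed share of changed probe sets 0.01), with Benjamini-Hochberg adjusted p over all probe sets. The fit was tested on simulated data. Where a gene had more than 1 probe set, the brightest was used, except for the members. The members and lists were chosen with earlier results of these data known. Named genes are the members, their hosts, the neighbours of Mir499, at most 3 genes per list, by lowest p, and the genes most like and most opposite to Mir499. The olfactory receptor genes, the locus comparisons, the order of the mice, Myog, Myl4, Myl7 and Mir200c were chosen after values were seen. Mature sequences were matched for 5 of 8 members. Precision is limited by the number of arrays.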

Additional observations from a re-analysis of the deposited data

How the results depend on the processing

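Mir499 had B above 0 in all 16 alternatives, with log2 changes of 3.59 to 3.82, and an adjusted p under 0.05 from limma in 10 of them. In 1 of the 10, the assumed share of 0.05, the adjusted p was that of the main fit, as the share enters B only. Another leaves out the dimmest 25% of probe sets, which Mir499 passed only through its TG-17 level. That alternative is thus no support for the call of Mir499. With the replicate number as a block its log2 change was 3.67 with B of 1.49 and an adjusted p of 0.318 from limma. Mice of the same number did not deviate together (r of 0.024, -0.00044 and 0.057), so the numbers were not taken as pairs. With that replicate block 69 probe sets had B above 0, against 130 without it. The count of called muscle microRNA genes was 1 throughout, except with an assumed share of 0.05, where Mir133a-1 joined and it was 2. With 1 mouse left out it was 1 to 1. The log2 change of Mir208a turned positive with arrays centred on their medians (0.024), without WT replicate 1 (0.013), without TG-17 replicate 3 (0.17) and with arrays centred on the other microRNA probe sets (0.083), the last alternative being chosen after seeing the data. With 1 mouse left out it ran from -0.13 to 0.17. That of Mir206 ran from -0.22 to 0.030 and was positive without WT replicate 2. The smallest difference in change between Mir499 and another gene was 3.12 to 3.21. Of the 4 host genes, 0 to 1 passed with 1 mouse left out. Of the 57 pathway genes, 1 passed without the dimmest 25% of probe sets and 1 with listed probe sets only (Hcn2 in both). With arrays centred on their medians 1 passed (Purb), and with arrays centred on the other microRNA probe sets 0 did. An intensity trend gave 4 (Tead1, Purb, Gja1, Hcn2) and an assumed share of 0.05 gave 2. With 1 mouse left out the count was 0 to 0. Of the 298 other microRNA genes, 0 passed with centred arrays (either centring), a second quantile normalization, an intensity trend or the replicate block, 5 with an assumed share of 0.05 and 0 to 1 with 1 mouse left out. Low signal limits Mir1a-1, Mir1a-2, Mir133a-2 and Mir206 in both groups and Mir499 in WT, and Mir1a-2, Mir133a-2 and Mir206 were not tested without the dimmest 25%. The causes of these shifts were not tested.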
